A study of Caenorhabditis elegans with 5 samples.

Results

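The cytochrome P450 genes of Caenorhabditis elegans outside the cyp-35 and cyp-14A subfamilies were followed over 5 Affymetrix arrays of whole worms. Members were all genes whose symbol in the platform annotation starts with cyp-, except those of the cyp-35 and cyp-14A subfamilies, and a gene was measured by the probe set with its highest mean among probe sets naming 1 gene. The rule gave 58 of 17118 measured genes, in 20 subfamilies. It left aside 10 cyp-35 and 5 cyp-14A genes of the 73 cyp genes measured.

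Each of the 5 groups had 1 array: unexposed worms (the control) and worms kept for 24 h with formaldehyde, with benzene, with toluene, or with all 3 together (BTF mix). All worms were wild-type hermaphrodites taken as young adults (3 days) from age-synchronised cultures fed Escherichia coli OP50. Exposure was in a salt medium (k-media) at 20 °C with no food, and the sources used here give neither concentrations nor the control's own incubation. With 1 array per group there was no replicate, so no difference has an error, a test or a p-value, and "higher" and "lower" describe these arrays only. RNA came from whole animals, so a change in the number of cells of a type and a change in RNA per cell cannot be told apart.

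Cytochrome P450s are haem enzymes that insert an oxygen atom into their substrates, with electrons passed on by a reductase. In worms, as in vertebrates, they act on foreign compounds, fatty acids and sterols, and many are expressed in the intestine. Benzene and toluene are oxidised by a P450 in mammals, whereas formaldehyde is cleared mainly by dehydrogenases. By sequence, the worm families fall near vertebrate clans: the cyp-33, cyp-34 and cyp-36 families near CYP2, cyp-13, cyp-25 and cyp-43 near CYP3, and cyp-29, cyp-31, cyp-32, cyp-37 and cyp-42 near CYP4, while cyp-44A1 is of the mitochondrial type.

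Values are probe set intensities on a linear scale, and every difference is a log2 difference of log2(intensity + 16), which understates changes of dim genes. Genes counted as called had a mean log2 level over the 5 arrays of at least 6.05, the 40th percentile of all genes. This left 10271 genes, 33 of them P450 members, and 2-fold (a log2 difference of 1) was the fixed size for a call. The other 25 members, with intensities between 11.3 and 60.1, stayed between -0.74 and 0.41 of control on the log2 scale. The overall level of an array was set by the deposited scaling. When arrays were instead scaled on 12 probe sets of poly-A spike RNA, the median of the 10271 genes stood at 0.42 (benzene), 0.10 (toluene), 0.07 (formaldehyde) and -0.64 (mix). Of the 24 members at least 0.1 from control after benzene, 14 changed sign under that scaling, as did 7 of 27 after the mix and 0 after toluene or formaldehyde. Median centring and quantile normalization changed the sign of none of these.

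Formaldehyde was the single compound after which P450 members were 2-fold away from control. Of the 33 members, 4 were 2-fold lower (12.1%, against 2.27% of all genes): cyp-34A9, cyp-37B1, cyp-32B1 and cyp-13B1. With a pseudocount of 64, cyp-32B1 (-0.98) and cyp-13B1 (-0.96) were no longer 2-fold lower. Without probe sets marked as able to bind several transcripts both were not measured, which left 2 of 31, against 2.14% of all genes. None was 2-fold higher, where the share of all genes was 4.55%. After the mix, cyp-37B1 was 2-fold lower (2.31% of all genes) and cyp-34A10 was 2-fold higher (4.34% of all genes). With poly-A scaling 5 members were lower after the mix, against 11.1% of all genes, and 0 were higher, against 1.61%. After benzene 0 of 33 were higher and 0 lower, against 1.2% and 0.175% of all genes, and after toluene again 0 and 0, against 0.107% and 0.0974%. In comparison, 5 of the 7 cyp-35 genes past the level filter were 2-fold higher after formaldehyde and 1 was lower, and 2 of 4 cyp-14A genes were 2-fold higher after the mix. Of these 2, cyp-14A3 passed the level filter only through its mix value (359). It had 39.8 in control, 53.9 after benzene, 60.2 after toluene and 24.7 after formaldehyde.

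The medians over all 58 members lay close to control in each exposure, at -0.02 (benzene), -0.03 (toluene), -0.05 (formaldehyde) and -0.01 (mix). The median of the 17118 genes was between -0.01 and 0.00. Members spread more widely than genes at large on the arrays with formaldehyde: past the level filter their median absolute difference was 0.27 after both formaldehyde and the mix, against 0.17 for all genes. After benzene it was 0.10 and after toluene 0.12, against 0.12 and 0.11. In all, 49 of the 58 members were less than 1.5-fold from control in every exposure.

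**Figure D1:**
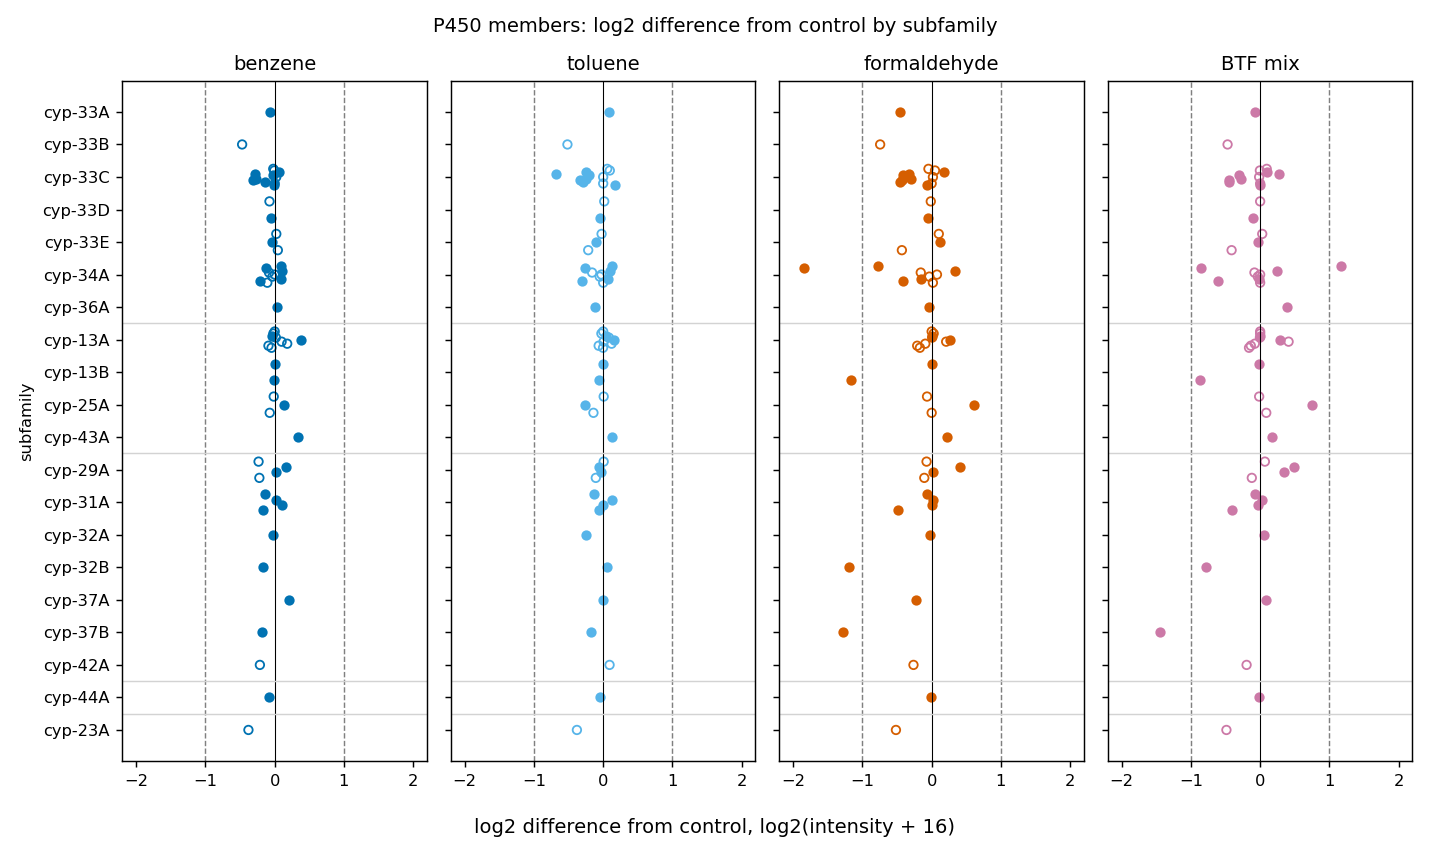
Log2 difference from the control array (x axis) for the 58 P450 members by subfamily (y axis), in 1 panel per exposure; each point is a gene, filled where it passed the level filter and open where it did not, dashed lines mark 2-fold, and grey lines part the sequence groups. Points lie within 2-fold after benzene and toluene, while cyp-34A9, cyp-37B1, cyp-32B1 and cyp-13B1 lie below the lower line after formaldehyde and cyp-34A10 lies above the upper line after the mix.

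The cyp-34A subfamily, of the CYP2-like group, held the widest ranges among the members. cyp-34A9, also listed among genes downstream of the FOXO factor DAF-16, had an intensity of 1218 unexposed, 1119 with benzene, 1012 with toluene, 327 with formaldehyde and 668 with the mix. The formaldehyde array was the lowest (-1.85, with control 3.60-fold above it), and the mix array lay between it and the other 3 (-0.85). cyp-34A10, its direct neighbour, had 83.4, 89.9, 92.1, 42.3 and 208 in the same order. It was lowest after formaldehyde (-0.77) and highest after the mix (1.17), and the mix stood 2.07-fold above the highest single compound, a call that 0.0389% of all genes shared. With poly-A scaling its difference after the mix was 0.58, below 2-fold.

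The mix contains formaldehyde, so these arrays were also set against each other, a comparison chosen after the values were seen. cyp-34A10 was 3.84-fold higher after the mix than after formaldehyde, and no other member was 2-fold apart, where 0.0389% of all genes were higher and 0% lower. cyp-34A9 came just under the threshold, at 1.99-fold (0.996), and cyp-33C8 followed at 0.60. At 1.5-fold these 3 of 33 members were higher after the mix, against 0.156% of all genes, and 0 were lower, against 0.00974%. With poly-A scaling cyp-34A10 stood at 1.26, cyp-34A9 at 0.25 and cyp-33C8 at -0.13. cyp-14A2 and cyp-14A3, outside the set, also lay below control after formaldehyde (-0.39 and -0.45) and above it after the mix (1.64 and 2.75). Of this pair, cyp-14A3 passed the level filter only through its mix value. The other cyp-14A genes lay above control after formaldehyde: cyp-14A1 at 0.13, cyp-14A4 (below the filter) at 0.27 and cyp-14A5 at 0.10. After the mix they stood at 0.56, 0.50 and 0.09. cyp-35B1, another gene listed downstream of DAF-16, was lower in all exposures, at -0.36 (benzene), -0.84 (toluene), -1.27 (formaldehyde) and -1.06 (mix).

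Both genes close a run of 6 cyp-34A genes, cyp-34A5 to cyp-34A10, with 0 other protein-coding genes or pseudogenes between them in the RefSeq gene table (WBcel235). The other 4 of the run did not share their pattern. cyp-34A8 was above control in all exposures, from 0.10 after benzene and toluene to 0.24 after the mix and 0.34 after formaldehyde. cyp-34A5, cyp-34A6 and cyp-34A7 were below the level filter and stayed between -0.16 and 0.08. Elsewhere in the genome, cyp-34A2 had 83.4 unexposed, 69.5 with benzene, 64.02 with toluene, 58.5 with formaldehyde and 49.3 with the mix. It was highest in control and lowest after the mix (-0.60). Its neighbour cyp-34A1, below the filter, lay between -0.11 and 0.02, and the pseudogene cyp-34A3 between -0.16 and 0.09.

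**Figure D2:**
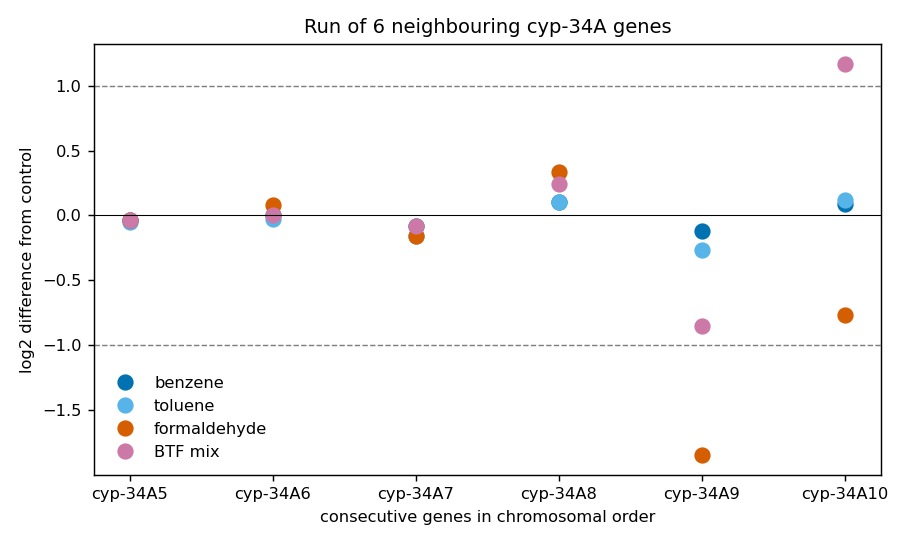
Log2 difference from control (y axis) of 6 consecutive cyp-34A genes in chromosomal order (x axis), 1 point per exposure, with dashed lines at 2-fold. cyp-34A5 to cyp-34A7 stay between -0.16 and 0.08 in every exposure, cyp-34A8 reaches 0.34 after formaldehyde, cyp-34A9 reaches -1.85 after formaldehyde, and cyp-34A10 stands at -0.77 after formaldehyde and 1.17 after the mix.

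Among the other CYP2-like genes, 0 of 11 cyp-33C genes were 2-fold from control, and 7 of the 11 passed the filter. cyp-33C8 had the widest range of them, with 280 unexposed, 226 with benzene, 169 with toluene, 221 with formaldehyde and 343 with the mix. Toluene gave its lowest value (-0.68), the 1 difference of 1.5-fold or more among the 33 members after toluene, against 0.789% of all genes. The mix gave its highest value (0.28), which turned to -0.34 with poly-A scaling.

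The genes cyp-33C4, cyp-33C3, cyp-33C5, cyp-33C6 and cyp-33C7 lie in a run with 1 other gene among them, and 4 of the 5 had their highest value in control. cyp-33C4 had 153 unexposed, then 120 (benzene), 119 (toluene), 110 (formaldehyde) and 109 (mix). cyp-33C3 had 112 in control and 99.6, 88.6, 77.0 and 77.3 in the same order. Both were lower in every exposure by the deposited scaling, down to -0.44 and -0.46. cyp-33C5 reached -0.30 and cyp-33C7 -0.41, both after formaldehyde, while cyp-33C6 gave 11.5 to 12.3, near the lowest intensity on the arrays. The probe sets of cyp-33C4 and cyp-33C5 are marked as able to bind several transcripts, so these may not be separate measurements. Over all 33 members, 12 were below control in all 4 exposures, or 36.4% against 35.3% of all genes, and 4 were above it in all 4, or 12.1% against 22.3%. With poly-A scaling 0 of the 12 and 0 of the 4 kept this: all 12 were above control after benzene, and cyp-13A5 (-0.32), cyp-31A3 (-0.60), cyp-34A8 (-0.32) and cyp-43A1 (-0.43) were below it after the mix.

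The remaining cyp-33C genes varied little or went other ways. cyp-33C9 was lowest after toluene (-0.25) and highest after formaldehyde (0.18), and cyp-33C1 was highest after toluene (0.17). cyp-33C2, below the level filter, carried the identical value of 18.7 on all 5 arrays, and cyp-33C11 and cyp-33C12, also below it, stayed between -0.05 and 0.10. cyp-33A1 had 141.9 unexposed, 135 with benzene, 152 with toluene, 98.7 with formaldehyde and 135 with the mix, with formaldehyde the lowest (-0.46). cyp-33B1, under the level filter, had 44.7 unexposed, then 27.8 (benzene), 26.4 (toluene), 20.2 (formaldehyde) and 27.8 (mix). At -0.74 after formaldehyde it was the 1 of 25 members below the filter that was 1.5-fold from control.

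cyp-33E2, which makes eicosanoids from long-chain fatty acids, had 67.8, 65.2, 62.4, 75.2 and 65.7 in control, benzene, toluene, formaldehyde and mix, between -0.10 and 0.12 of control. cyp-33E1, below the filter, was lower after formaldehyde and the mix (-0.43 and -0.41), and its relative cyp-33E3, also below it, stayed between -0.02 and 0.10. cyp-33D1 and cyp-33D3 (below the filter) lay between -0.10 and 0.02. cyp-36A1, which acts downstream of the hypoxia-inducible factor HIF-1, had 104 unexposed, 107 with benzene, 95.1 with toluene, 101 with formaldehyde and 141 with the mix. The mix array was the highest (0.39), a difference that became -0.18 with poly-A scaling.

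The CYP4-like group held 2 of the 4 genes lower after formaldehyde. cyp-37B1 had 633 unexposed, 557 with benzene, 556 with toluene, 251 with formaldehyde and 221 with the mix. Both arrays with formaldehyde were low, at -1.28 and -1.45, and the other 3 were close together. cyp-32B1 had 332, 293, 347, 137 and 187 in the same order, which gave -1.19 after formaldehyde and -0.78 after the mix. Its 1 probe set is marked as able to bind several transcripts. Its neighbour in the gene order, cyp-33C12, was below the level filter (20.5 to 24.3), where changes are understated, and had differences from -0.05 to 0.09. cyp-37A1, the other cyp-37 gene, had 349, 404, 349, 295 and 372 in control, benzene, toluene, formaldehyde and mix, and stood at -0.23 after formaldehyde and 0.09 after the mix. The probe sets used for cyp-37A1 and cyp-32A1 are also marked as able to bind several transcripts. cyp-32A1 was lowest after toluene (-0.25), and cyp-42A1 (below the filter) lay between -0.26 and 0.09 on the probe set used. A second probe set of cyp-42A1, marked x, stood at -0.64 after formaldehyde.

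Of the 4 cyp-31A genes, 3 stayed between -0.14 and 0.13 of control in every exposure. cyp-31A2 and cyp-31A3 are needed in the germ line for the lipid-rich layer of the eggshell. cyp-31A2 had 981 in control, 1060 after benzene, 981 after both toluene and formaldehyde, and 958 after the mix. Its probe set is marked as able to bind several transcripts. cyp-31A3 had 578, 588, 634, 588 and 588 in the same order of arrays. Their differences lay between -0.03 and 0.13, and those of cyp-31A5 between -0.14 and -0.07. The pseudogene cyp-31A1 was lower after formaldehyde (-0.49) and the mix (-0.41), on a probe set marked as shared between transcripts. Eggshell and permeability barrier genes gave medians between -0.19 and -0.06, with 0 of 11 called in any exposure. perm-4 (-0.55), perm-1 (0.47) and fasn-1 (-0.64), which makes fatty acids, had the largest differences with mbk-2 (-0.39). The 6 oocyte markers had medians between -0.18 and -0.04 and summed to between 21368 and 23844.

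In the cyp-29A subfamily, cyp-29A3, an eicosanoid-forming enzyme, had 55.8 unexposed, 64.6 with benzene, 52.5 with toluene, 79.4 with formaldehyde and 84.3 with the mix. The arrays with formaldehyde were the highest (0.41 and 0.48), though the mix difference was -0.04 with poly-A scaling. cyp-29A2 was highest after the mix (0.34, or -0.23 with poly-A scaling). The pseudogene cyp-29A1 and cyp-29A4, both below the filter, lay between -0.23 and 0.07.

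In the CYP3-like group, cyp-13B1 was low and cyp-25A2 high on the arrays with formaldehyde. cyp-13B1 had 331 unexposed, 330.0 with benzene, 316 with toluene, 139 with formaldehyde and 174 with the mix, for differences of -1.16 and -0.87. Its second probe set gave -1.36 and -0.84, and both are marked as able to bind several transcripts. cyp-13B2, the other gene of the subfamily, had between 59.1 and 60.3 on all arrays. cyp-25A2 had 189 unexposed, 210 with benzene, 155 with toluene, 296 with formaldehyde and 330 with the mix. It was 1.52-fold above control after formaldehyde and 1.68-fold after the mix, and its lowest array was toluene, 2-fold below the mix (a range of 1.01). With poly-A scaling its difference after the mix was 0.14. At 1.5-fold cyp-25A2 was the 1 member of 33 higher after formaldehyde (8.67% of all genes), and with cyp-34A10 it made 2 after the mix (8.46%).

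The relatives of these genes lay closer to control, though many were below the level filter, where changes are understated. cyp-25A1, the direct neighbour of cyp-25A2, was below it at 39.1 to 48.6 and stayed between -0.14 and 0.09. cyp-25A6, also below it at 15.2 to 16.9, stayed between -0.07 and 0.01. The 9 cyp-13A genes had medians of 0.00 to 0.01, and 2 of them passed the filter. cyp-13A5 had 248 unexposed, 330 with benzene, 278 with toluene, 302 with formaldehyde and 306 with the mix, so control was its lowest array (up to 0.39). cyp-13A7, which can be induced by the antibiotic rifampicin, had between 72.5 and 77.8. The 8 genes cyp-13A1 to cyp-13A8 lie in 1 run, and the largest difference among those below the filter was 0.41 (cyp-13A4 after the mix, from 15.5 to 25.9). cyp-13A10 carried 26.4 on all 5 arrays. cyp-13A12, which takes part in the behavioural response to reoxygenation, was measured only by a probe set shared with cyp-13A11, which had 13.6 unexposed, then 16.02 (benzene), 15.9 (toluene), 19.8 (formaldehyde) and 19.1 (mix). A probe set shared by cyp-25A4 and cyp-25A5 stood between -0.28 and 0.13.

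cyp-43A1 had 248 unexposed, 316 with benzene, 272 with toluene, 291 with formaldehyde and 282 with the mix. Like cyp-13A5 it was lowest in control, with benzene the highest (0.33), or 0.77 with poly-A scaling. cyp-44A1, the mitochondrial-type P450 of the worm, varied little, at 847, 802, 822, 839.7 and 836 in control, benzene, toluene, formaldehyde and mix. Its differences stayed between -0.08 and -0.01. cyp-23A1, below the filter, was lower in all exposures (-0.52 to -0.38), on a probe set marked as able to bind several transcripts.

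**Figure D3:**
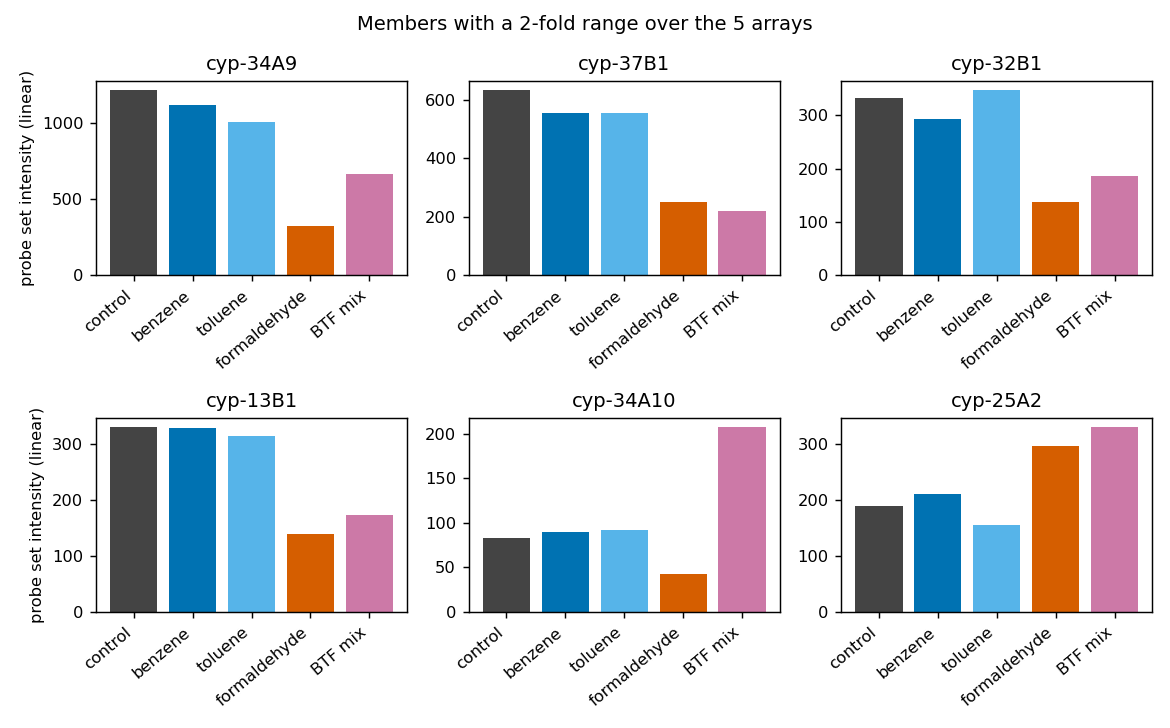
Probe set intensity (y axis, linear from 0) on each of the 5 arrays (x axis, 1 bar per array, no replicates) for the 6 P450 members with a range of 2-fold or more. cyp-34A9, cyp-37B1, cyp-32B1 and cyp-13B1 are low on the formaldehyde and mix arrays, cyp-34A10 is low after formaldehyde (42.3) and high after the mix (208), and cyp-25A2 is highest on those arrays (296 and 330).

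Treating the 5 arrays alike, 6 of the 33 members (18.2%) had a range of 2-fold or more between their highest and lowest array, against 8.26% of all genes. The median range was 0.41 over these members and 0.28 over the 10271 genes. The formaldehyde and mix arrays were both below the other 3 for 11 members (33.3%, against 30.4% of all genes) and both above them for 4 (12.1%, against 20.2%), the first of these shares being near the background. All 4 exposures were within 0.2 of control for 10 members (30.3%, against 41% of all genes). At 1.5-fold, 5 of 33 members were lower after formaldehyde and 5 after the mix, against 6.43% and 6.63% of all genes. After benzene it was 0 of 33 in either direction, against 3.48% higher and 0.915% lower, and after toluene 0 were higher, against 1.57%.

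**Figure D4:**
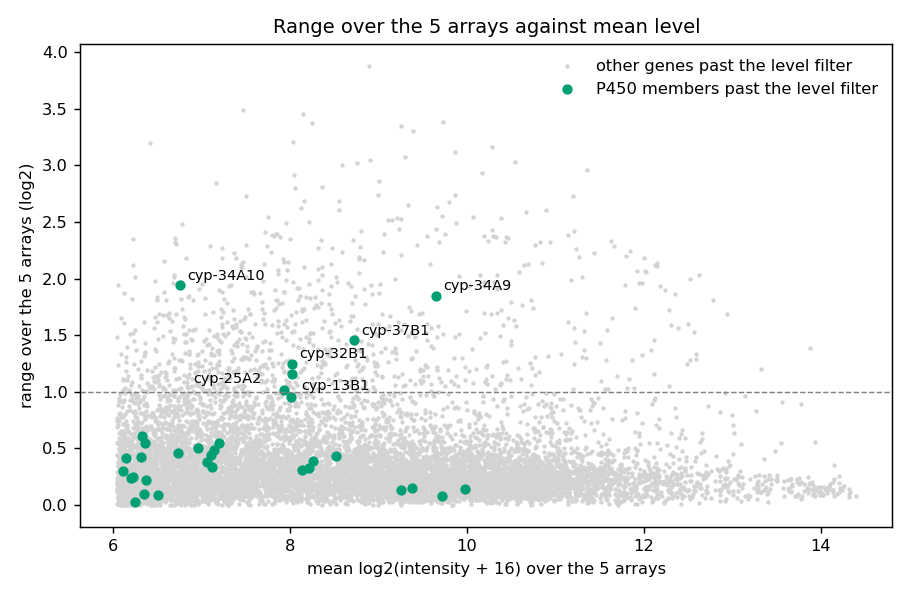
Range over the 5 arrays (y axis, highest minus lowest log2 value) against mean log2 level (x axis) for the 10271 genes past the level filter (grey) and the 33 P450 members among them (green), with a dashed line at 2-fold. The 6 named members lie above the line, and cyp-34A10 and cyp-34A9 have the widest ranges among the members, at 1.94 and 1.85.

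Benzene and toluene were also set against each other. Of the members, 0 of 33 were 2-fold apart, against 0.185% of all genes higher after benzene and 0.0195% lower. At 1.5-fold it was also 0, against 1.02% and 0.156%. Shares this small among all genes leave a count of 0 of 33 near the background. Without known doses, benzene against toluene is no comparison at matched exposure. The widest gaps among members past the filter were cyp-25A2, with 210 after benzene and 155 after toluene (0.40), and cyp-33C8, with 226 and 169 (0.39).

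Genes that work with P450s were also read. emb-8, the P450 reductase, stayed between -0.12 and 0.13, while cytb-5.1 and cytb-5.2, which encode cytochromes b5, went apart: 0.55 and -0.59 after formaldehyde, and 0.81 and -0.64 after the mix. Of 4 flavin monooxygenases past the filter fmo-2 was 2-fold higher in each exposure, from 1.42 to 2.11, fmo-1 was at -0.91 after formaldehyde and fmo-4 between 0.51 and 0.68. fmo-3, below the filter, reached 0.37. The epoxide hydrolase genes ceeh-1 and ceeh-2, which open epoxides made by P450s, reached -0.43 and -0.24, with 0 of 2 called. Of the dafachronic acid genes, which include the P450 gene daf-9, 0 of 3 past the filter were called. daf-12, the receptor, reached -0.59 and strm-1 -0.68. Below the filter, daf-36 reached 0.41, dhs-16 reached -0.40 and daf-9 lay between -0.12 and -0.09.

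Regulators linked to P450 genes had medians of -0.12 (benzene), -0.10 (toluene), -0.25 (formaldehyde) and -0.29 (mix), with 0 of 12 called. The list held 14 genes, but hif-1 and egl-9 were not measured by a probe set naming 1 gene. The largest differences were those of rhy-1 (0.86), a target of HIF-1, sbp-1 (-0.82), a lipid regulator, nhr-8 (-0.59), a nuclear receptor of foreign compound defence, and mdt-15 (-0.51), a Mediator subunit. daf-16 was at -0.24 after formaldehyde. Haem transport genes had 0 of 2 called, and hrg-1 reached 0.70, mrp-5 -0.56, hrg-4 (below the filter) 0.88 and hrg-3 (below the filter) -0.04.

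Tissue markers also differed from control on the arrays where the 4 genes were lower. The marker lists were chosen with earlier results of these data known, so their counts are description only and no independent evidence. All 7 late embryo and larval cuticle markers were 2-fold lower after formaldehyde and after the mix, against 2.27% and 2.31% of all genes, and their summed intensity was 8491 unexposed, 6800.1 with benzene, 8629 with toluene, 1320.4 with formaldehyde and 1143 with the mix. Of 11 intestine markers, 3 were 2-fold higher after formaldehyde and 4 after the mix (median 0.54 and 0.56), against 4.55% and 4.34% of all genes. Their sum ranged from 37364 to 40692, act-5, pho-1, cpr-5 and pept-1 differed most, and elt-2, the intestinal GATA factor, stayed between -0.03 and 0.03. pho-1, with 34.1 in control, 79.2 after benzene and 31.4 after toluene, passed the filter only through the arrays with formaldehyde. It had 206 after formaldehyde and 227 after the mix. vit-2 and vit-6, on the same list, were below control in all exposures, down to -0.35 and -0.18. Of 7 sperm markers past the filter, 5 were higher after formaldehyde and 4 after the mix (again 4.55% and 4.34% of all genes), and the 10 measured summed to 1789 in control and 7844 after formaldehyde. The probe sets of gsp-3, gsp-4, msp-3 and msp-142, called on both arrays, are marked as able to bind several transcripts. These may therefore not be separate measurements. Below the filter, spe-9, spe-38 and fer-1 lay between -0.16 and 0.08. The pharynx, muscle and hypodermis lists had medians between -0.30 and 0.03, with ceh-22 the 1 gene called (-2.01 after formaldehyde and -1.88 after the mix). Their part in the P450 differences was not tested.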

How the data were processed

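The deposited table holds probe set intensity values of 22625 probe sets on 5 arrays, on a linear scale. The submitters' processing notes name RMA, MAS5 and Affymetrix Expression Console 1.1 without the role of each, and the sources used here do not say which gave the deposited intensity values. Of the probe sets, 10677 (47.2%) carried an equal value on at least 1 pair of arrays, as did 26 of the 58 members, so small differences are coarse. Per the labels' protocols, 300 ng of total RNA went into biotin-labelled cRNA through a 3′-primed kit. The median intensity was between 82.3 and 84.8 on the arrays.

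Gene names came from the platform annotation. All 58 members matched the RefSeq gene table (WBcel235) through the Entrez identifier. Of the 64 genes of the set in that table, 6 were not measured alone: cyp-13A9, cyp-13A11, cyp-13A12, cyp-25A3, cyp-25A4 and cyp-25A5. Probe sets naming several genes (887) and 77 control probe sets were left out of gene counts. Differences were computed in Python 3.11.15 with pandas 2.3.3, with a pseudocount of 16 and the level filter described above. Only the 2-fold call was tried on simulated data, with shifts planted in genes already past the filter. The simulation did not cover the choice of probe sets, the filter or the scaling. Promoter and protein sequences were not analysed here. The number of arrays limits the precision.

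Named in the text were members 2-fold away in any comparison, the member with the highest mean and the one with the widest range in each subfamily, members with a described role, and up to 4 genes of each list with the largest differences. The remaining members, cyp-14A1, cyp-14A2, cyp-14A3, cyp-14A4, cyp-14A5, cyp-35B1, daf-9, daf-16, elt-2, vit-2, vit-6, spe-9, spe-38 and fer-1 were named outside this rule, after their values were seen. hif-1 and egl-9 were named as genes without a measurement. Members, lists and sequence groups were chosen with earlier results of these data known. The other settings tried are given in the closing section.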

Additional observations from a re-analysis of the deposited data

How the results depend on the processing

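Of 110 counts recomputed under 10 other settings, 93 stayed within 1.5 times the reported count and 17 did not. The counts after benzene and toluene, higher after formaldehyde, and between benzene and toluene were 0 under the main settings. Nearly all of these stayed 0, so 93 of 110 overstates how steady the other counts were. Most of the 17 that moved were counts above 0. Of 32 medians, 30 stayed within 0.1. Of 40 recomputed differences of the 5 called genes, 36 stayed past 2-fold and 0 changed sign. With a pseudocount of 64, 2 members were 2-fold lower after formaldehyde (1.4% of all genes) and 0 higher after the mix (3.04%). Under that setting 0 had the mix above all single compounds (0.0292%). cyp-13B1 (-0.96), cyp-32B1 (-0.98) and cyp-34A10 (0.88) were then below 2-fold. Without probe sets marked s or x, 2 members were lower after formaldehyde (2.14% of all genes), since cyp-13B1 and cyp-32B1 have no unmarked probe set. With the filter at the 60th percentile, 14 members were left, and cyp-34A10 was below that level. Of the 14, 0 were higher after the mix (4.64% of all genes). Also, 0 had the mix above all single compounds and 0 were apart between formaldehyde and mix (0% of all genes for both). With poly-A scaling, 0 members were higher after the mix (against 1.61% of all genes) and 5 were lower (against 11.1%). Under that scaling 0 had the mix above all single compounds (against 0.00974%), with cyp-34A10 at 0.58 from control. The median was then 0.31 after benzene and -0.47 after the mix. Between formaldehyde and mix, cyp-34A9 and cyp-34A10 were apart with a pseudocount of 1 (2 members, 0.0682% of all genes). The same 2 were apart with median centring (0.0487%), and 3 members at 1.5-fold (0.166%). At 1.5-fold, 1 member was lower after toluene (0.789% of all genes) and 1 higher after formaldehyde (8.67%). After the mix, 2 were higher (8.46%) and 5 lower (6.63%). No paired analysis was possible because each group had 1 array. Dim members limit what can be seen: 25 of 58 were below the level filter. The comparison of formaldehyde with the mix was added after seeing the data.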

Other observations

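Where a member had 2 probe sets, they did not always agree. For cyp-42A1 the probe set used had 60.1 after toluene, above its control of 55.4 (0.09), while a probe set marked x had 42.6 after toluene and 61.8 in control (-0.41). After formaldehyde the one marked x stood at -0.64 and the one used at -0.26. For cyp-23A1 the probe set used, marked x, was lower in all exposures, while the unmarked one had between 12.9 and 13.8 on all arrays. For cyp-32A1 the difference after toluene was -0.25 on the probe set used and -0.16 on the other.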
